A study of Homo sapiens with 8 samples.

Results

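The imprinted miRNA cluster of human chromosome band 14q32 was followed in PC-3 cells, an established cell line of human prostate cancer that is known to lack a functional androgen receptor. Members were taken by name, as every human miRNA on the array that carried one of 45 miRNA numbers assigned to the locus. This gave 74 of the 1887 human miRNAs on the array. The cells had been given DMSO, the solvent and control, 60 µM luteolin, 60 µM gefitinib, or luteolin plus gefitinib at 60 µM each, and total RNA was taken after 24 h. Luteolin is a plant flavonoid and gefitinib inhibits the kinase of the epidermal growth factor receptor. Each of these 4 groups was measured on 2 arrays, named biological replicates in the labels, so p-values measure the spread between such pairs of cultures of this single cell line.

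The 14q32 locus, also called the DLK1-DIO3 domain, is imprinted, so that each of its genes is expressed from 1 parental chromosome. The paternal copy expresses the protein-coding genes DLK1, RTL1 and DIO3, and the maternal copy expresses long noncoding RNAs (MEG3, an RNA antisense to RTL1, MEG8), small nucleolar RNAs and the miRNAs. The miRNAs lie in a proximal group between MEG3 and MEG8 and in a large distal group from miR-379 to miR-656. miR-431, miR-432, miR-433, miR-127 and miR-136 are cut from the antisense strand of RTL1 and so match its mRNA perfectly. The cluster is known for expression in the embryo, placenta and brain and for being silenced in many tumours.

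The sequences below are those of the detected members that the comparisons turn on, together with the undetected close relatives of 2 of them. They are mature miRNAs of RefSeq (GRCh38.p14), printed from the 5' end with the seed, bases 2 to 8, in capitals. The array names of miR-134, miR-370, miR-487b, miR-487a and miR-494 give no arm and RefSeq lists both, so both arms are printed; which of them was measured is not given in the sources used here.

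hsa-miR-770-5p: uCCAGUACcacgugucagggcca
hsa-miR-431-3p: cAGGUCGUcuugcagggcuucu
hsa-miR-432-5p: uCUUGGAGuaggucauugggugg
hsa-miR-370-5p: cAGGUCACgucucugcaguuac
hsa-miR-370-3p: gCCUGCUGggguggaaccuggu
hsa-miR-494-5p: aGGUUGUCcguguugucuucucu
hsa-miR-494-3p: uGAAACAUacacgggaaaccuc
hsa-miR-654-5p: uGGUGGGCcgcagaacaugugc
hsa-miR-1185-1-3p: aUAUACAGggggagacucuuau
hsa-miR-1185-2-3p: aUAUACAGggggagacucucau
hsa-miR-487b-5p: gUGGUUAUcccuguccuguucg
hsa-miR-487b-3p: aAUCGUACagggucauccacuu
hsa-miR-487a-5p: gUGGUUAUcccugcuguguucg
hsa-miR-487a-3p: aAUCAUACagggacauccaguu
hsa-miR-134-5p: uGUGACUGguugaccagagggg
hsa-miR-134-3p: cCUGUGGGccaccuagucaccaa

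No seed was shared between detected members. Within the cluster, some were shared with undetected members. miR-1185-1-3p and miR-1185-2-3p have the same seed and differ at 1 of 22 positions, U20C, where positions are counted from 1 at the 5' end and the base of miR-1185-1-3p comes first. miR-487b-5p and miR-487a-5p also have a common seed and differ by U14C, C15U and C16G. The 3p arms of these miRNAs differ by G5A, U13A and C20G, and the first of these lies in the seed. The seed of miR-494-5p is also that of the members miR-323b-5p and miR-410-5p, and the seed of miR-654-5p is also that of the member miR-541-3p.

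Most of the cluster was not detected in PC-3 cells. A miRNA counts here as detected when the scanner software gave it a total signal above its background threshold. Of the 74 members, 64 were detected on no array, 10 (13.5%) on at least 1 array and 5 (6.76%) on all 8. Among the 1813 other human miRNAs, 512 (28.2%) were detected on at least 1 array and 360 (19.9%) on all 8. Between 6 and 10 members were detected per array, namely 9 and 7 in DMSO, 8 and 6 in luteolin, 9 and 10 in gefitinib, and 8 and 6 in luteolin plus gefitinib. Under a stricter rule, by which most spots of at least 1 probe had to lie well above background, 8 members were detected on at least 1 array and 3 on all 8.

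Detected members came from the first 58.7 kb of the locus, which holds MIR770 and the whole proximal group, and from 177 to 202 kb. No hairpin of the members lies between MIR370 at 58.7 kb and MIR379 at 170 kb, so most of the gap between these stretches reflects where the hairpins lie. Of the members, 73 belong to 52 hairpins on chromosome 14 that span 214 kb (GRCh38.p14, chr14:100852390-101066801), and miR-544b, which shares its number with miR-544a, lies on chromosome 3 and was not detected. The hairpin within MEG3, MIR770, gave a detected miRNA, as did 4 of the 9 hairpins of the proximal group and 5 of the 42 of the distal group. A run of 9 hairpins without a detected member followed MIR370, and the starts of MIR370 and MIR494 lie 118 kb apart. The 5 detected hairpins of the distal group then fell within 25.1 kb, among 21 hairpins from MIR494 to MIR134, and the 12 hairpins after MIR134 gave no detected member. In the proximal group, miR-127, miR-136 and miR-433, which come from the same RTL1 antisense RNA as miR-431 and miR-432, were detected on no array.

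**Figure D1:**
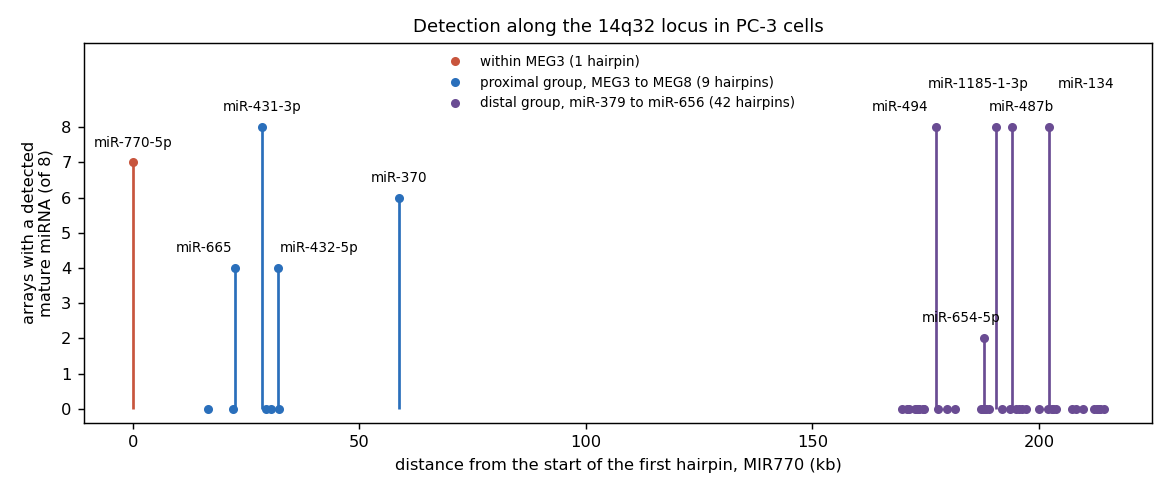
Number of arrays, of 8, on which a mature miRNA of each of the 52 chromosome 14 hairpins was detected, against the distance in kb from the start of MIR770; where a hairpin has 2 members the higher number is shown. Only 10 hairpins rise above 0, and the 4 detected on all 8 arrays in the distal group stand among hairpins at 0.

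The undetected members lay at background. Their median signal per spot, after subtraction of background by the software, was between -0.465 and -0.217 on the 8 arrays, and that of the 1301 other undetected miRNAs was between -0.487 and -0.260. Of the 1920 spots of these 64 members, 1 to 11 per array were well above background. The mean signal per spot of miR-1185-2-3p, which differs from a detected member at 1 base, was 2.95. An undetected miRNA may still be present below what these arrays resolve.

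Of 7 epithelial marker miRNAs, 4 were detected in these epithelial tumour cells. miR-200a-3p (scaled signal 68.7 to 88.7), miR-200b-3p (124 to 153) and miR-429 (27.0 to 38.1) were detected on all 8 arrays and miR-205-5p on 6, whereas miR-200c-3p, miR-141-3p and miR-203a were detected on none. The summed signal of the epithelial markers was 262 to 270 in DMSO, 259 to 264 in luteolin, 219 to 273 in gefitinib and 236 to 284 in luteolin plus gefitinib. None of the 5 stromal and muscle markers and none of the 2 neuron and liver markers was detected, and of the 5 blood cell markers only miR-142-3p was, on 1 luteolin array (1.67). A lower level per cell and fewer cells that express a miRNA cannot be told apart in these bulk samples. Across all human miRNAs, 395 to 481 were detected per array and 0 spots were saturated, and replicates differed by a median of 0.0998 in gefitinib, 0.186 in luteolin plus gefitinib, 0.317 in DMSO and 0.394 in luteolin (absolute log2 difference over the 365 miRNAs detected on all 8 arrays).

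Signals below are total signals per miRNA scaled between arrays, in the scanner's linear units, and a miRNA that was not detected enters the tests at a floor of 0.609. Because probes differ in brightness, scaled signals are compared between arrays and not between miRNAs. Of the 74 members, 9 had both arrays of some group detected and were tested among 480 miRNAs. A call means a limma p under 0.05 after Benjamini-Hochberg adjustment over those 480.

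Against DMSO, luteolin gave 1 call among the 9, which was lower, where 10 of all 480 miRNAs were called (2.08%, with 1.88% lower). Gefitinib gave 2 calls, 1 higher and 1 lower, where 58 of all were called (12.1%, with 7.5% higher and 4.58% lower). Luteolin plus gefitinib gave 3 calls, all lower, where again 58 of all were called (12.1%, with 6.04% lower). Against gefitinib alone the combination gave 1 call, lower, where 4.58% of all were called and 3.54% were lower. Against luteolin alone it gave 0 by limma, with 2 members at an unadjusted p under 0.05 and 0 by the methods' t-test after adjustment, where 1.88% of all were called by limma. For the interaction of the drugs limma gave 0, with 1 member at an unadjusted p under 0.05, where 3.33% of all were called. The threshold of the study's methods was a fold above 2 and an unadjusted P below 0.05. There the methods' t-test passed 1 member for luteolin (2.71% of all), 1 for gefitinib (9.58%) and 2 for the combination (9.17%). miR-432-5p was the member passed for luteolin and 1 of the 2 for the combination. It entered only through the groups that detected it, with the luteolin-treated arrays at the floor, so these passes are no support for a difference.

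**Figure D2:**
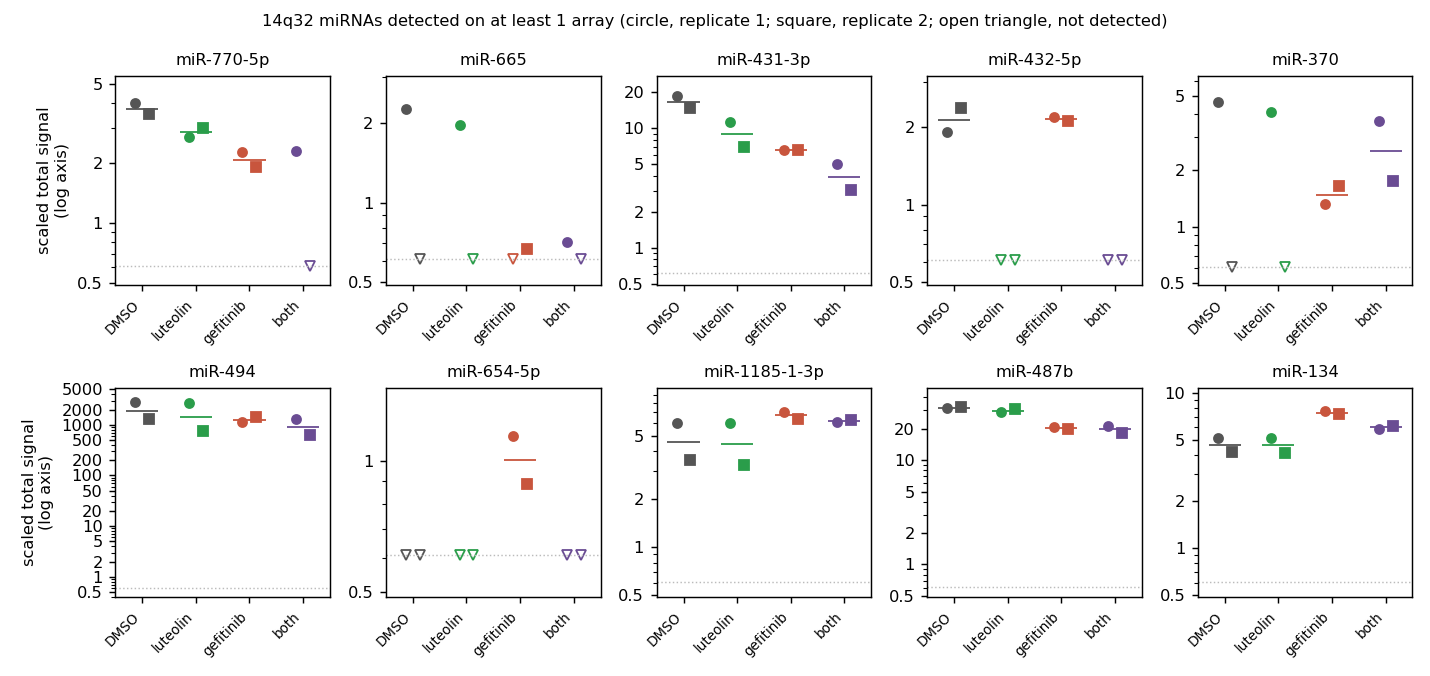
Scaled total signal (log axis, scanner units) of the 10 detected members on each array, by treatment; circles are replicate 1, squares replicate 2, bars the mean on the log scale where both replicates were detected, and open triangles on the dotted floor mark arrays without detection. miR-431-3p lies highest in DMSO and lowest in luteolin plus gefitinib, miR-487b is lower in both groups with gefitinib, and miR-494 differs widely between replicates.

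miR-770-5p is cut from an intron of MEG3, the long noncoding RNA that marks the maternal chromosome (chr14:100852390-100852487). Its scaled signal was 4.01 and 3.52 in DMSO, 2.72 and 3.02 in luteolin, and 2.27 and 1.91 in gefitinib. In luteolin plus gefitinib it was 2.31 on the first array and not detected on the second. All 3 drug groups thus lay below DMSO without overlap. In the reported fit no difference passed the threshold: the log2 fold change against DMSO was -0.39 for luteolin, -0.85 for gefitinib and -1.67 for the combination (limma, SE 0.59 for each, adjusted p = 0.958, 0.494 and 0.156). The last value rests on the undetected array at the floor. It was -0.98 with mean processed signal and -1.03 with the sum of all probe totals, both past the threshold (adjusted p = 0.0360 and 0.0345), and -0.70 without the undetected array (adjusted p = 0.145). It also passed without the first array of the combination (-2.63, adjusted p = 0.00946), where the floor alone stands for the group. Of the probes, 3 of 4 gave 12, 12 and 31 spots well above background over the 8 arrays and the other gave 0.

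In the reported fit miR-431-3p had the largest fold change from DMSO of the 5 members detected on all 8 arrays, in each of the 3 drug groups. With log2 of signal plus 16 and with normexp, miR-494 fell further in luteolin and in the combination. For the combination it was -1.06 against -0.71 and -0.94 against -0.41. Without the first luteolin array it also fell further in luteolin (-1.35 against -1.24). The hairpin of miR-431-3p (chr14:100881007-100881120) lies on the plus strand inside RTL1, whose mRNA is read from the minus strand. The scaled signal was 18.6 and 14.8 in DMSO, 11.3 and 7.03 in luteolin, 6.58 and 6.65 in gefitinib, and 5.05 and 3.05 in luteolin plus gefitinib. Every drug-treated array lay below both DMSO arrays, and the combination lay below each drug alone. With the combination miR-431-3p was 4.23-fold lower than in DMSO (log2 fold change -2.08, SE 0.33, adjusted p = 0.0158, limma). The total on the second combination array leaves out the third probe, which was 0.519 there. With the sum of all probe totals the log2 fold change was -1.97. The difference of gefitinib from DMSO (-1.33, SE 0.33) missed the threshold with an adjusted p of 0.0641, but passed it in 10 of 20 alternatives (lowest adjusted p = 0.0193). That of luteolin missed it in all 20 (-0.90, SE 0.33, adjusted p = 0.481 in the reported fit). Without the first and without the second luteolin array this value was -1.24 and -0.56. The combination differed from luteolin by -1.18 (adjusted p = 0.181) and from gefitinib by -0.75 (adjusted p = 0.455), neither of which passed.

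The 4 probes of miR-431-3p ran in parallel. Their mean scaled totals went from 4.87, 4.46, 3.67 and 3.70 in DMSO to 2.02, 1.67, 1.60 and 1.33 in gefitinib and to 1.26, 1.31, 0.756 and 0.983 in luteolin plus gefitinib. All 30 spots were well above background on both DMSO arrays and 0 of 30 on the second array of the combination, so the level there is close to what the array can resolve. The call for the combination was lost in 9 of 20 alternatives, among them the fits without either DMSO array, either gefitinib array or the second array of the combination (adjusted p = 0.0633 to 0.0955), and it kept a value between -2.44 and -1.72 when each array in turn was left out.

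miR-432-5p, from the same RTL1 antisense RNA (chr14:100884483-100884576), was detected on both DMSO arrays (1.92 and 2.36) and both gefitinib arrays (2.18 and 2.11) and on no array with luteolin. It was the only member called for luteolin alone. With undetected arrays at the floor, limma called it lower than DMSO in luteolin (adjusted p = 0.00383) and in luteolin plus gefitinib (0.00183), and lower in the combination than in gefitinib (0.00305). These p-values are too small, since miR-432-5p entered the test only through the groups that detected it and all 4 arrays with luteolin share the floor with a spread of 0, and they are no support for a difference. By the counted probe's own signal on those arrays, the ratio of geometric means was 1.69 for DMSO over luteolin, 2.03 for DMSO over the combination and 2.05 for gefitinib over the combination, whose 2 arrays differ widely. Gefitinib alone differed from DMSO by 0.01 on the log2 scale (adjusted p = 0.982, limma).

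These calls rest on 1 of 2 probes for miR-432-5p. Its scaled total was 1.92 and 2.36 in DMSO, 1.19 and 1.33 in luteolin, 2.18 and 2.11 in gefitinib, and 0.707 and 1.55 in the combination, with 28 of 120 spots well above background. The second probe, with 7 of 120 such spots, did not separate the groups (0.701 and 1.04 in DMSO, 0.923 and 0.570 in luteolin). When both probes were summed whether or not they were detected, the log2 fold change against DMSO was -0.57 for luteolin (adjusted p = 0.763) and -0.86 for the combination (adjusted p = 0.197), and that between the combination and gefitinib was -0.65 (adjusted p = 0.598), and none was called. Over the 19 alternatives the calls were lost in 7 for luteolin and in 5 each for the combination against DMSO and against gefitinib.

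**Figure D3:**
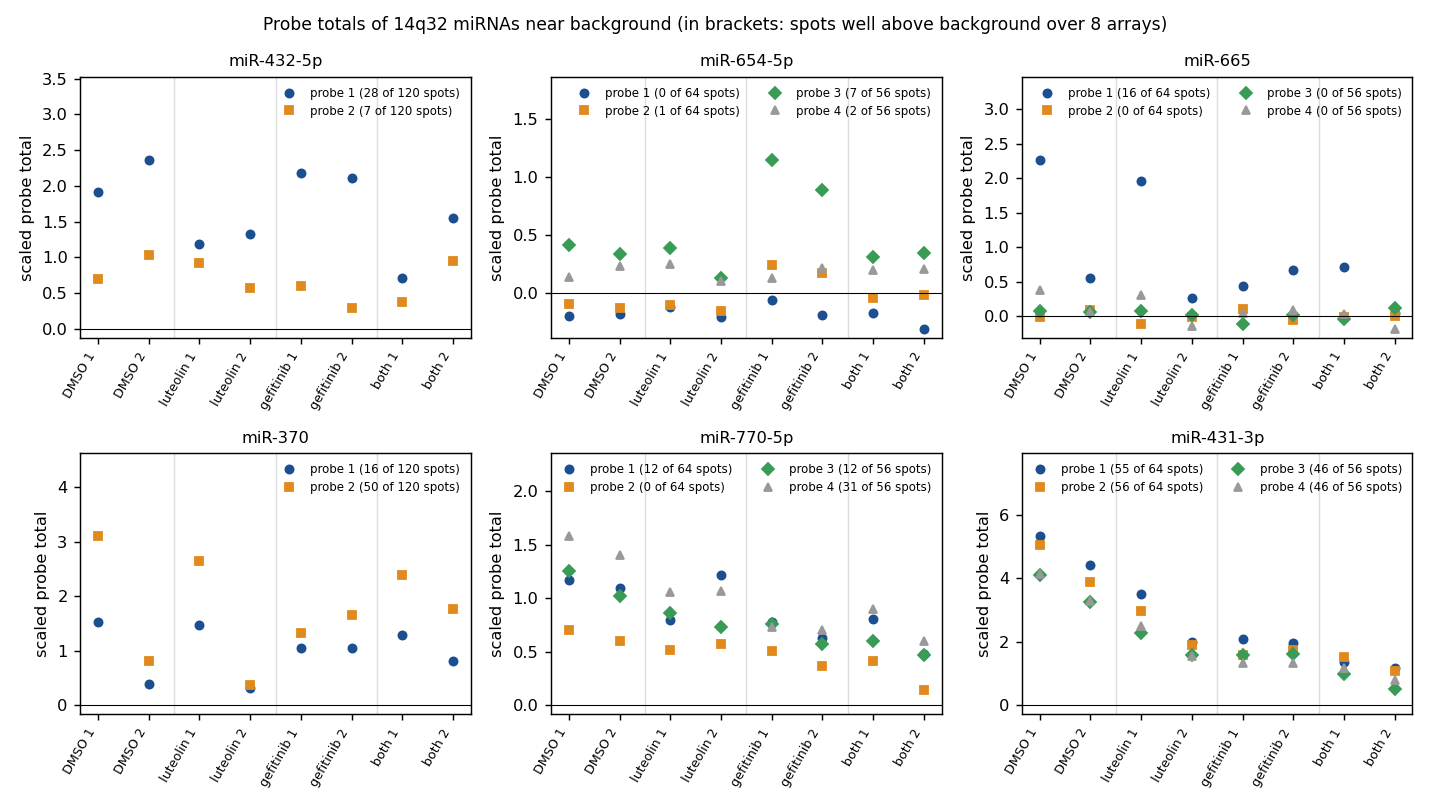
Scaled totals (scanner units) of each probe on each of the 8 arrays for 6 members near background, with the number of spots well above background over all arrays in the legend. The 4 probes of miR-431-3p fall together, whereas a single probe carries the signal of miR-432-5p, miR-654-5p and miR-665.

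miR-370, whose hairpin (chr14:100911139-100911213) lies within MEG8, and miR-665 differed widely between the replicates of DMSO and of luteolin. miR-370 was 4.63 on the first DMSO array and 4.11 on the first luteolin array and was not detected on the second array of either group. It was 1.32 and 1.65 in gefitinib and 3.67 and 1.76 in luteolin plus gefitinib. The totals of both gefitinib arrays and of the second combination array count only the second probe, and the other detected totals count both probes. On the second probe alone the first combination array was 2.38. The first probe gave 1.06 and 1.05 in gefitinib and 1.28 and 0.814 in the combination, which overlap. With an SE of 1.24, the log2 fold changes of miR-370 against DMSO were all smaller than that error. They were -0.09, -0.18 and 0.60 for luteolin, gefitinib and the combination. miR-665 was 2.26 on the first DMSO array, 1.96 on the first luteolin array, 0.711 on the first array of the combination and 0.666 on the second gefitinib array, and was not detected elsewhere, so that it was the 1 detected member that could not be tested. Its signal came from 1 of 4 probes.

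miR-494 was detected by every spot of both its probes on all 8 arrays (chr14:101029634-101029714). Its scaled signal was 2812 and 1273 in DMSO, 2683 and 741 in luteolin, 1123 and 1435 in gefitinib, and 1291 and 622 in luteolin plus gefitinib. The replicates differed 2.21-fold in DMSO, 3.62-fold in luteolin and 2.07-fold in the combination, and all 3 drug groups overlapped DMSO. The log2 fold change against DMSO was -0.42 for luteolin, -0.58 for gefitinib and -1.08 for the combination (limma, SE 0.74, adjusted p = 0.958, 0.717 and 0.438). Without the first and without the second DMSO array the value was -0.0042 and -1.15 for gefitinib and -0.51 and -1.65 for the combination, and it was -1.60 and -0.55 for the combination without its own first and second array. For the combination the 95% interval of the difference, in this fit that does not pair arrays by replicate number, runs from -2.91 to 0.75. Both a large fall and a small rise lie within it. Taken by replicate number, the combination lay below DMSO each time (1291 against 2812 and 622 against 1273), though the labels tie these numbers to no shared culture.

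miR-487b was lower in both groups that received gefitinib. Its hairpin (chr14:101046455-101046538) lies in MIR381HG, a noncoding host gene of the distal group. The scaled signal was 31.5 and 32.4 in DMSO and 28.8 and 30.8 in luteolin, against 20.6 and 20.1 in gefitinib and 21.4 and 18.3 in luteolin plus gefitinib. The 4 arrays with gefitinib did not overlap the 4 without it. Against DMSO it fell 1.57-fold with gefitinib (log2 fold change -0.65, SE 0.14, adjusted p = 0.0406, limma) and 1.61-fold with the combination (-0.69, SE 0.14, adjusted p = 0.0323). Luteolin alone differed from DMSO by -0.10 (adjusted p = 0.958, 95% interval -0.44 to 0.24), and the combination differed from gefitinib by -0.04 (adjusted p = 0.999). The combination differed from luteolin by -0.59, which missed the threshold with an adjusted p of 0.138.

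Both probes of miR-487b showed this difference, and all 240 of their spots were well above background. The mean scaled total was 21.6 in DMSO and 20.3 in luteolin, against 14.5 in gefitinib and 13.7 in the combination, for the first probe, and 10.3 and 9.49, against 5.87 and 6.13, for the second. The call for gefitinib was lost in 8 of 20 alternatives, among them the fit without scaling between arrays (-0.28, adjusted p = 0.637) and 6 of 8 fits that left out an array, those without a DMSO, gefitinib or combination array (adjusted p = 0.0504 to 0.167). The call for the combination was lost in 10 of 20 alternatives, among them 5 of 8 fits that left out an array, those without a DMSO array, a gefitinib array or the second combination array (0.0719 to 0.115), and that with quantile normalization (0.0523).

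miR-134, known in neurons for repressing the kinase Limk1 at synapses, had its higher values in the groups with gefitinib. Its scaled signal (chr14:101054687-101054759) was 5.15 and 4.19 in DMSO, 5.13 and 4.11 in luteolin, 7.57 and 7.26 in gefitinib, and 5.84 and 6.15 in luteolin plus gefitinib. After scaling, the 4 arrays with gefitinib lay above the other 4, but the unscaled total of the second array of the combination (4.75) was below those of the first DMSO (4.84) and first luteolin (5.48) arrays. Neither difference from DMSO passed the threshold: it was 0.68 for gefitinib (SE 0.18, adjusted p = 0.0708, limma) and 0.37 for the combination (SE 0.18, adjusted p = 0.270), which was 0.22 without the second DMSO array. Under quantile normalization both passed (0.81 and 0.62, adjusted p = 0.0072 and 0.0154). The number of spots well above background was 28 of 60 in DMSO, 38 in luteolin, 60 in gefitinib and 45 in the combination.

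miR-1185-1-3p had the values 5.98 and 3.53 in DMSO, 5.98 and 3.30 in luteolin, 7.06 and 6.35 in gefitinib, and 6.11 and 6.25 in luteolin plus gefitinib (chr14:101042977-101043062). By this total the 4 arrays with gefitinib lay above the other 4. The difference from DMSO was 0.54 for gefitinib and 0.43 for the combination (limma, SE 0.36, adjusted p = 0.475 and 0.522), within the spread between replicates. Without the first and without the second DMSO array these values were 0.92 and 0.16 for gefitinib and 0.81 and 0.047 for the combination, and with the sum of all probe totals they were 0.31 and 0.20. On the second DMSO and the second luteolin array the total counts only 1 of the 2 probes, since the other was not detected there. That brighter probe by itself gave means of 3.87 in DMSO, 3.63 in luteolin, 4.57 in gefitinib and 3.94 in the combination. On that probe the combination (3.86 and 4.02) overlapped DMSO (4.22 and 3.53), and the groups with gefitinib were not separate from those without it.

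miR-654-5p, reported as a repressor of the androgen receptor, was detected with gefitinib alone (1.15 and 0.885) and on none of the other 6 arrays (chr14:101040219-101040299). It was at least 1.40-fold higher in gefitinib than in DMSO (log2 fold change 0.72 with undetected arrays at the floor, SE 0.16, adjusted p = 0.0452, limma). This p is too small and is no support for a difference, since miR-654-5p entered the test only through the gefitinib group and the other 6 arrays share the floor with a spread of 0. The combination was at least 1.46-fold lower than gefitinib alone, with an adjusted p of 0.0885 that missed the threshold, and the interaction of the drugs missed it too (adjusted p = 0.299). The signal came from 1 of 4 probes, which had 3 of 7 spots well above background on each gefitinib array and 0 or 1 elsewhere. That probe totalled 0.409 and 0.331 in DMSO. The call was lost in 14 of 19 alternatives, 7 of them among the 8 fits that left out an array (adjusted p = 0.0521 to 0.165), where the exception was the fit without the second gefitinib array (0.0477). The log2 fold change shrank to 0.05 with quantile normalization (adjusted p = 0.783), 0.10 with a floor of 1 (0.662), 0.09 with log2 of signal plus 16 (0.190) and 0.036 with normexp (0.300). It was 1.05 with mean processed signal (0.00699) and 1.08 with the sum of all probe totals (0.0142). 

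**Figure D4:**
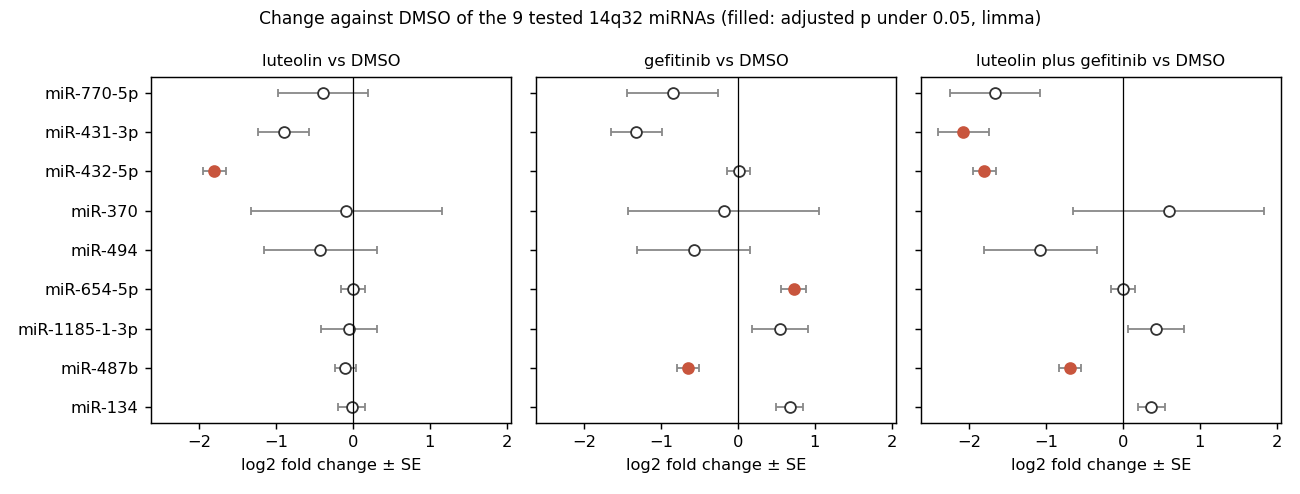
Log2 fold change against DMSO, with its standard error from limma, of the 9 tested members under luteolin, gefitinib and luteolin plus gefitinib; filled points have an adjusted p under 0.05. miR-432-5p is filled with luteolin and with the combination, miR-487b with gefitinib and with the combination, miR-654-5p with gefitinib and miR-431-3p with the combination.

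The other arms of the detected hairpins were at background where the array carried them. miR-431-5p, miR-432-3p, miR-654-3p and miR-1185-5p were detected on no array, with mean signals per spot of -0.693, -0.465, 0.228 and 0.124 and at most 1 of 240 spots well above background. The members that share a seed with miR-494-5p or miR-654-5p were not detected either, where the array name miR-410 gives no arm. miR-410, with 8 of 240 spots well above background, had a mean signal per spot of 0.311, miR-323b-5p had -0.821 and miR-541-3p had -1.10. miR-127-3p and miR-433, which with miR-431 are known to target RTL1, had -0.319 and -0.789.

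The close relatives of detected members were not detected. miR-1185-2-3p, which differs from miR-1185-1-3p at 1 base near the 3' end, was detected on no array, with 1 of 240 spots well above background. Their probes differ, so this is no comparison of their levels. The first probe of miR-1185-2-3p totalled 0.560 to 0.822 on the arrays without gefitinib and 0.913 to 1.08 on those with it. The second probe totalled 0.561 to 0.859 and 0.813 to 1.16, ranges that overlap. miR-487a had 0 of 240 spots well above background and probe totals from -0.249 to 0.119. How far a probe of 1 relative takes up the other was not tested.

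**Figure D5:**
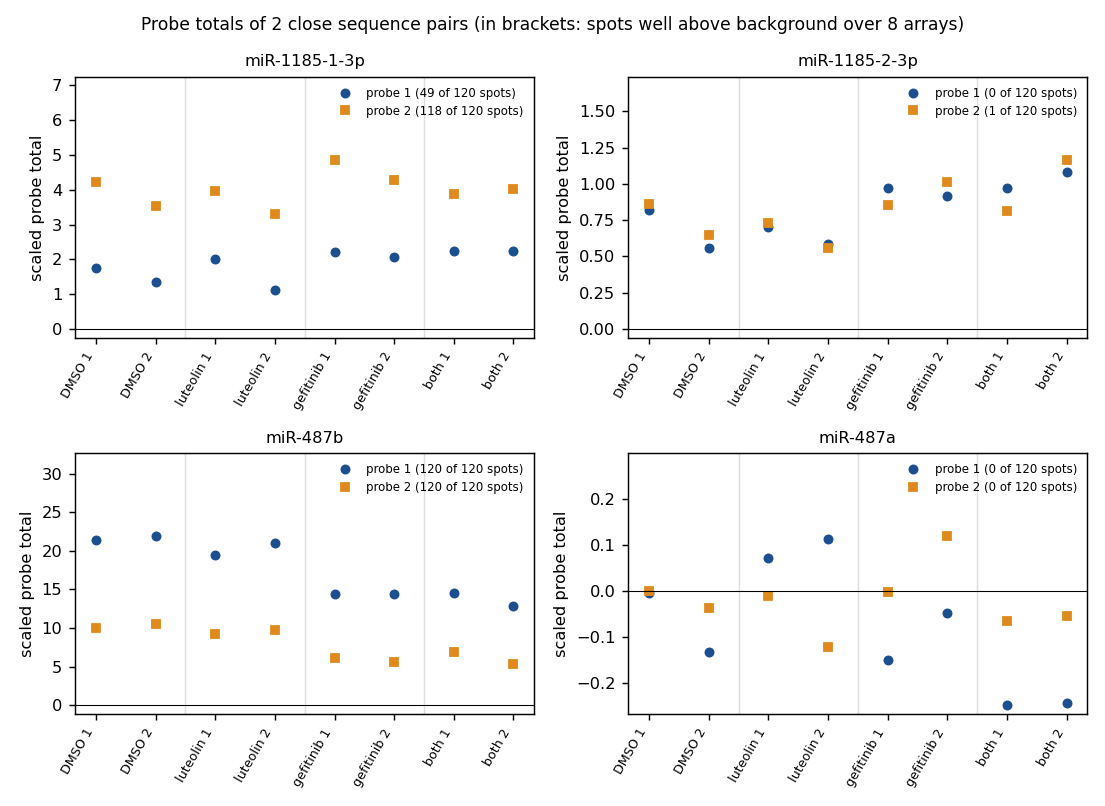
Scaled totals (scanner units, each panel with its own axis) of the probes of miR-1185-1-3p, miR-1185-2-3p, miR-487b and miR-487a on each array, with the spots well above background over 8 arrays in the legend. Both probes of miR-487b drop on the 4 arrays with gefitinib, and the probes of miR-487a stay around 0.

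The median log2 fold change of the 9 members was -0.10 with luteolin, -0.18 with gefitinib and -0.69 with the combination, beside -0.10, -0.10 and -0.16 over all 480. The gefitinib median is the value of miR-370, whose gefitinib totals count only the second probe. With the sum of all probe totals the gefitinib median was -0.21, beside -0.14 over all 480. Without the first and without the second DMSO array this median was -0.0042 and -0.63, and without scaling 0.066, beside 0.26 over all 480. The luteolin median was -0.48 without the second DMSO array and 0 without scaling, and the combination's was -0.51 and -0.86 without the first and without the second DMSO array. These 3 comparisons share the DMSO arrays. Since miR-432-5p and miR-654-5p were tested only through the groups in which they were detected, the counts and medians over the 9 are a description and not a property of the cluster. With the combination 5 members lay below 0, among them the 3 called, and 3 lay above 0, miR-134, miR-1185-1-3p and miR-370, of which 0 were called.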

How the data were processed

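Cy3-labelled total RNA from PC-3 cells of 4 treatments was hybridised to 8 Agilent miRNA arrays of 1 colour, 2 per treatment. Per the labels, the authors extracted each array with Agilent Feature Extraction, and the deposited values are background-subtracted signal intensity on a linear scale, without normalization between arrays. A miRNA's total signal sums its detected probes and is set to 0.1 where none is detected. The deposited series table matched these spot values within 0.5% and was not otherwise used. Each array held 56610 spots for 1887 human miRNAs, 30 each, and precision is limited by the number of arrays. All arrays were on the same slide and in the same scan per the file headers.

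Totals were scaled to each array's 75th percentile over the 365 miRNAs detected on all 8 arrays (60.5 to 92.7, restored to their geometric mean of 78.3), raised to a floor of 0.609, the median of the arrays' lowest detected signals, and put on the log2 scale. For 480 miRNAs some group had both arrays detected, and these were fitted over all 4 groups with limma 3.58.1 in R 4.3.3 (4 residual degrees of freedom, prior 1.66), and p-values were adjusted by Benjamini-Hochberg. Where a group had no detection, the brighter group's mean on the log2 scale is set against the mean, over the dimmer group's arrays, of the higher of the array's lowest detected signal and the same probes' own total. This is a bound (at least) where the array's lowest detected signal was used, for miR-654-5p, and a plain ratio open to noise where the probes' own total was higher, for miR-432-5p. The study's methods require a fold above 2 and an unadjusted P below 0.05. As an alternative to limma, calls by the methods' t-test were instead counted at a Benjamini-Hochberg adjusted p under 0.05, with no fold cut. An exact permutation test of 2 arrays against 2 cannot give p below 0.333 and was not used. Names were matched to RefSeq (GRCh38.p14): 61 members matched a mature miRNA by name, 12 matched a hairpin with both arms and 1 a hairpin with 1 arm. The array's own genome build was not used.

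Named members are the 5 detected on all arrays, every member called, the up to 3 largest rises and falls per drug among members detected on the 4 arrays compared, members detected in 1 group and absent from another, other arms, and relatives with close sequences. The members and lists were chosen with earlier results of these data known. Alternatives were no scaling, quantile normalization, mean processed signal per spot, normexp with an offset of 50 and a floor of 1. Others were log2 of signal plus 16, no filter, only miRNAs detected on all 8 arrays, the methods' t-test and only the groups compared. The rest were the replicate number as a block, each array left out, and, chosen after seeing the data, the sum of all probe totals.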

Additional observations from a re-analysis of the deposited data

How the results depend on the processing

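Each of the 7 called differences of single members lost its call in at least 1 alternative. The 3 of miR-431-3p and miR-487b kept their direction under every alternative run, while that of the 4 of miR-432-5p and miR-654-5p was set by the groups that detected them and shows no stability. Of the 10 detected members, 8 passed the stricter rule for detection. For luteolin against DMSO the 1 call fell to 0 under quantile normalization, mean processed signal, normexp, log2 of signal plus 16, members detected on all 8 arrays only, the methods' t-test, only the groups compared and the sum of all probe totals; without single arrays it was 1 to 1. For gefitinib against DMSO the 2 calls fell to 1 without scaling, with a floor of 1 and by the methods' t-test and to 0 without a filter, rose to 3 (1 higher, 2 lower) with quantile normalization, mean processed signal, normexp and the sum of all probe totals, and ranged from 0 to 3 without single arrays. The higher call was miR-134 in place of miR-654-5p with quantile normalization and normexp. With log2 of signal plus 16, members detected on all 8 arrays and only the groups compared, the 2 calls were miR-431-3p and miR-487b, both lower. For luteolin plus gefitinib against DMSO the 3 calls fell to 1 without scaling, without a filter and with only the groups compared and to 0 by the methods' t-test, were 2 with quantile normalization (1 higher, miR-134, and 1 lower), normexp and members detected on all 8 arrays (both lower in each), and ranged from 1 to 4 without single arrays. The calls over all 480 miRNAs moved too: for gefitinib from 58 to 42 without scaling, 39 by the t-test and 15 to 70 without single arrays, for the combination from 58 to 30, 13 and 14 to 73, and for luteolin from 10 to 8, 0 and 6 to 18. Without a filter they were 18, 12 and 5 of 1887. Against luteolin the combination gave 1 call in place of 0 with log2 of signal plus 16, and 0 to 1 without single arrays. Against gefitinib its 1 call fell to 0 under quantile normalization, normexp and log2 of signal plus 16. That call, miR-432-5p, was not tested with only miRNAs detected on all 8 arrays. With mean processed signal and with the sum of all probe totals the 1 call of the combination against gefitinib was miR-654-5p. There miR-432-5p lost its call (limma, adjusted p = 0.529 and 0.598). The interaction stayed at 0. At the methods' threshold (fold above 2 and P below 0.05, unadjusted) the t-test gave 1 member for luteolin, 1 for gefitinib and 2 for the combination against DMSO. The difference of miR-432-5p between gefitinib and DMSO, 0.01 on the log2 scale, became 0.38 without scaling, -0.19 with mean processed signal, -0.013 with normexp and -0.21 with the sum of all probe totals, and ranged from -0.14 to 0.16 without single arrays. That of miR-494 between luteolin and DMSO ranged from -1.35 to 0.50 without single arrays, turning to 0.15 without the first DMSO array and to 0.50 without the second luteolin array. With 1 array left in a group, the fit takes its spread from the other groups. The labels tie replicate numbers to no shared culture or day, and not every correlation of replicate differences was above 0.1, so they were not taken to pair the arrays. It was 0.908 between DMSO and luteolin, 0.409 and 0.461 between these and the combination, and -0.135, -0.0932 and 0.0652 between gefitinib and DMSO, luteolin and the combination. With the replicate number as a block, gefitinib gave 3 member calls, miR-431-3p now among them (adjusted p = 0.0308), the counts of the other comparisons were the same, and the difference of miR-494 between the combination and DMSO (-1.08) had an adjusted p of 0.247. The causes of these shifts were not tested. Members near the floor are limited by signal over background: 1 to 3 probes with few spots above it decide their values.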

Other observations

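The placenta-specific miRNA cluster of chromosome 19, another large imprinted cluster, was also mostly undetected: 3 of its 45 miRNAs were detected on at least 1 array and 0 on all 8. miR-520b was detected on both gefitinib arrays and miR-519e-5p and miR-520e on 1 array each. Of 9 miRNAs from the imprinted host genes H19, IGF2, MEST and GNAS, 2 were detected, both on all 8 arrays. They were miR-335-5p from MEST (scaled signal 3.28 to 4.82) and miR-483-5p from IGF2 (6.38 to 12.7). The other 7 were detected on no array.

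Base composition was compared only for members matched by mature name. The 6 detected members so matched had a median of 60% G and C bases and 33.4% G, and the 55 undetected had 45.5% and 21.7%. The detected miR-134, miR-370, miR-487b and miR-494, whose array names give no arm, were left out. The 5p and 3p arms of miR-494 have 47.8% and 45.5% G and C bases, and those of miR-487b 54.5% and 45.5%. Those of miR-134 have 59.1% and 60.9%, and those of miR-370 54.5% and 68.2%. Among the other miRNAs on the array the medians were 54.5% and 31.8% for 426 detected and 47.8% and 23.8% for 1091 undetected. These are descriptions, without a test, of sequences that share families and probes of the same design.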
